A study of Gallus gallus with 6 samples.

Results

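Of the 565 mature miRNAs counted in the livers of Lushi green-shell hens, 4 belong to miR-103 and miR-107 and were selected by name. They are miR-103-3p and miR-107-3p, the main products, and miR-103-2-5p and miR-107-5p, the opposite-arm products of the same hairpins. The livers were taken from hens at 30 weeks of age (L30, egg-laying) and at 20 weeks (L20, before laying, called juvenile in the sample titles), with 3 small RNA libraries at each age. The study describes hens of both ages as sexually mature. All birds were female and of this 1 breed, both ages were kept in cages with free access to feed, and no agent or transgene was involved. The sources used here do not state whether a library came from 1 hen or several, so p values measure the spread between these libraries, which may be partly technical.

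A miRNA guides the silencing machinery to messenger RNAs that pair with its seed, a short stretch near the 5′ end. MiR-103 and miR-107 have the same seed, and their mature 3p strands differ only near the 3′ end. In mice, both lower insulin sensitivity in liver and fat and act on caveolin-1, a membrane protein that stabilizes the insulin receptor. In vertebrates their hairpins lie in genes of pantothenate kinases, the enzymes that commit pantothenate (vitamin B5) to coenzyme A, the acyl carrier of fatty acid synthesis and oxidation. In the RefSeq gene table of the chicken assembly GRCg7b, mir-107 lay within the span of PANK1, mir-103-1 within PANK3 and mir-103-2 within PANK2, with no other listed gene spanning any of the 3 hairpins. The count table lists miR-103-3p under both mir-103-1 and mir-103-2, so its reads cannot be divided between PANK3 and PANK2, whereas miR-107-3p is listed under mir-107 alone. The alignment tolerated mismatches and shortened or extended ends. Reads of miR-103-3p and miR-107-3p could thus have been assigned to each other, which leaves the value of each uncertain.

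The counted miRNA reads ranged from 3864984 to 8804077 in the L30 libraries and from 7135289 to 14822854 in the L20 libraries. They made up 18.2% to 45.0% of the clean reads in L30 and 49.1% to 58.0% in L20, so that TPM values, which are counts scaled to the clean reads, are lower in L30 for most miRNAs. A second scale, CPM, in which counts are scaled to the counted miRNA reads of the library, is not affected by this share but is relative to the other miRNAs. The hepatocyte markers miR-122-5p and miR-122-3p, present in all 6 libraries, summed to 70981 to 94660.0 CPM in L30 and to 89729 to 127578 in L20. On this scale the summed markers of endothelial cells (2 of 2 found), leukocytes (4 of 4) and erythroid cells (3 of 3) were lower in every L30 library than in any L20 library, whereas the mesenchymal (3 of 5) and epithelial (4 of 4) sums overlapped. The share of all miRNAs that were lower in every L30 library on this scale was not counted, so how usual this is remains unknown. None of the markers found was at 0 in any library. The endothelial sum, for example, was 30113 to 35547 CPM in L30 and 56766 to 73761 in L20. Taken singly, the leukocyte marker miR-155 overlapped between the ages (116.9 CPM in L30-1, 96.0 in L20-3). So did the erythroid marker miR-144-3p (68.3 CPM in L30-1, 66.6 in L20-3), and the other leukocyte and erythroid markers did not. The part of these cell types in the results that follow was not tested. In whole liver, fewer cells of a type and less RNA per cell cannot be told apart.

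The balance between the seed-sharing 3p strands did not overlap between the ages. MiR-107-3p made up 26.1%, 26.2% and 27.6% of the summed miR-103-3p and miR-107-3p counts in L30-1, L30-2 and L30-3, and 36.4%, 38.6% and 33.9% in L20-1, L20-2 and L20-3. Every L30 library lay below every L20 library, and the gap between the ages was wider than the range within either. Single miRNAs were often apart as well. In TPM, 46.2% of the 236 tested miRNAs were lower in every L30 library than in any L20 library. In CPM, 19.5% were higher in every L30 library. How often the balance of other pairs of miRNAs was apart was not counted. The mean share was 26.6% ± 0.847 in L30 and 36.3% ± 2.37 in L20 (SD, n = 3 each), a difference of −9.69 percentage points (two-sided exact permutation test, p = 0.1, which is the floor for 3 against 3 libraries). Wilson 95% intervals, which cover counting error only, ran from 25.7% to 28.0% over the L30 libraries and from 33.4% to 38.9% over the L20 libraries. Because both counts come from the same library, this share does not depend on the library scaling. It does depend on how reads were assigned between the 2 similar strands, as does the ratio below. Whether that assignment differed between the ages was not tested.

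**Figure D1:**
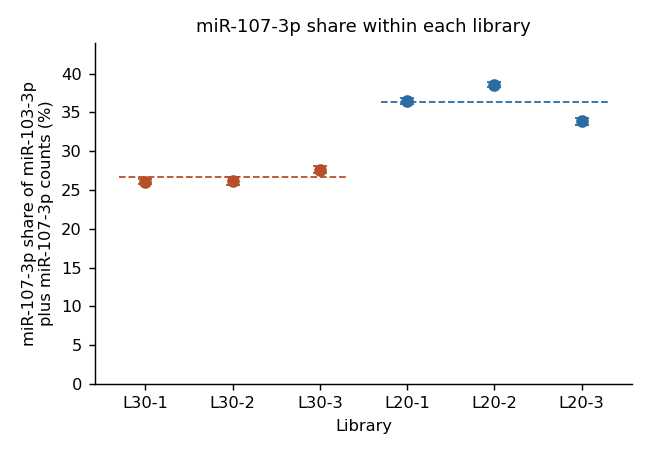
Share of miR-107-3p in the summed miR-103-3p and miR-107-3p counts (percent, vertical axis) in each library (horizontal axis, L30 in brown and L20 in blue), with Wilson 95% intervals and the mean of each age as a dashed line. The 3 L30 libraries lie between 26.1% and 27.6% and the 3 L20 libraries between 33.9% and 38.6%.

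Expressed as a ratio, there were 2.84, 2.82 and 2.63 miR-103-3p reads for each miR-107-3p read in L30-1, L30-2 and L30-3, against 1.74, 1.59 and 1.95 in L20-1, L20-2 and L20-3. MiR-103-3p was thus the more abundant strand in every library, and by a wider margin in L30. On the log2 scale, the ratio of miR-107-3p to miR-103-3p counts averaged −1.46 ± 0.06 in L30 and −0.81 ± 0.15 in L20 (SD, n = 3 each). The difference of −0.65 is the difference between the age effects of the 2 strands (two-sided exact permutation test, p = 0.1, again the floor). With each library left out in turn, it stayed between −0.73 and −0.58.

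MiR-103-3p, the product of the hairpins in PANK3 and PANK2, had 44603, 22299 and 27044 counts in L30-1, L30-2 and L30-3 and 39749, 54303 and 27019 counts in L20-1, L20-2 and L20-3. Scaled to clean reads, these were 2280.1, 1658 and 1271 TPM in L30, against 1958, 2045 and 1858 TPM in L20. The L30 libraries were widely spread and lay on both sides of the L20 libraries. The means were 1736 ± 509 TPM in L30 and 1954 ± 93.6 TPM in L20 (SD, n = 3 each). In edgeR's quasi-likelihood test over 236 miRNAs, its log2 fold change was −0.17 ± 0.46 (SE, Benjamini-Hochberg adjusted p = 0.810), and without L30-3 it turned to 0.0112.

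Relative to the other miRNAs, miR-103-3p was higher in L30 than in L20. It had 5066, 4995 and 6997 CPM in L30-1, L30-2 and L30-3 and 3378, 3663 and 3787 in L20-1, L20-2 and L20-3. All 3 L30 libraries exceeded all 3 L20 libraries on this scale, as they did for 19.5% of the tested miRNAs. With the summed counts as library size, miR-103-3p rose by 0.66 ± 0.19 on the log2 scale (SE, adjusted p = 0.0338 in edgeR), within a range of 0.0252 to 0.974 over its edgeR fits, where 12.3% of the tested miRNAs were called as higher. The call was lost without L20-1, L20-2, L20-3 or L30-1 (edgeR adjusted p from 0.0570 to 0.0959), and the value stayed between 0.48 and 0.74 in all 6 of these fits. Its rank by count was 24, 23 and 19 of the listed miRNAs in L30-1, L30-2 and L30-3, and 29, 25 and 23 in L20-1, L20-2 and L20-3.

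MiR-107-3p, the product of the hairpin in PANK1, had 15720, 7911 and 10302 counts in L30-1, L30-2 and L30-3 and 22789, 34135 and 13837 counts in L20-1, L20-2 and L20-3. Its TPM values were 804, 588 and 484 in L30 and 1123, 1286 and 952 in L20. All 3 L30 libraries were below all 3 L20 libraries, as they were for 46.2% of the tested miRNAs on this scale. The means were 625 ± 163 TPM in L30 and 1120 ± 167 TPM in L20 (SD, n = 3 each), a ratio of 0.558. The log2 fold change was −0.84 ± 0.49 (SE, adjusted p = 0.189 in edgeR), which did not pass the threshold of 0.05. Without L30-1 it was −1.06 and passed it (edgeR adjusted p = 0.0495, within a range of 0.0495 to 0.967 over its edgeR fits). In that fit 103 of 249 tested miRNAs were called, all as lower, and the median log2 fold change was −1.22.

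In relative terms, miR-107-3p had 1786, 1772 and 2665 CPM in L30-1, L30-2 and L30-3, and 1937, 2303 and 1939 in L20-1, L20-2 and L20-3. Here the ages overlapped, with L30-3 the highest of the 6 libraries and L30-1 and L30-2 the lowest. The log2 fold change with the summed counts as library size was 0.0101 ± 0.21 (SE, adjusted p = 0.967 in edgeR). Its rank was 34, 36 and 32 in L30-1, L30-2 and L30-3 and 38, 36 and 36 in L20-1, L20-2 and L20-3.

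**Figure D2:**
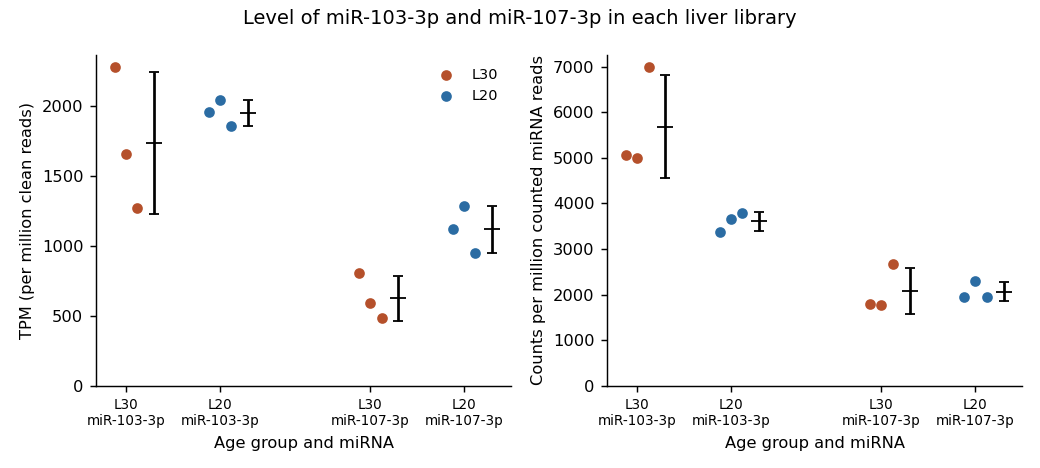
Level of miR-103-3p and miR-107-3p in each library (points; L30 in brown, L20 in blue) with the mean and SD of each age (black, n = 3), in TPM on the left and in CPM (scaled to the counted miRNA reads) on the right. The ages are apart for miR-107-3p in TPM (484 to 804 in L30, 952 to 1286 in L20) and for miR-103-3p in CPM (4995 to 6997 in L30, 3378 to 3787 in L20).

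Both strands were set against the whole table. Scaled to clean reads, the median log2 fold change of the 236 tested miRNAs was −0.86. MiR-107-3p, at −0.84, lay near this median, with 50.4% of the tested miRNAs more negative, and miR-103-3p had 74.2% more negative. With the summed counts as library size, the median was −0.10, and 54.7% were more negative than miR-107-3p and 76.7% more negative than miR-103-3p. The signs of both strands differed between the scales. A change of library size shifts all miRNAs of a library alike, so their order is largely kept by construction. Of the 4 members, 3 passed the filter on low counts, and 0 of these 3 were called with the clean reads as library size, where 58 of 236 miRNAs (24.6%) were called, all of them as lower in L30. Before adjustment, 1 of the 3, miR-107-5p, had a p under 0.05, as did 92 of the 236 miRNAs (39.0%). DESeq2, which scales to its own size factors, called 1 of the 3, miR-103-3p, as higher in L30, beside 17.8% of the tested miRNAs. A block for the replicate number called 0 of the 3 members and 90 of all 236 miRNAs (38.1%).

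**Figure D3:**
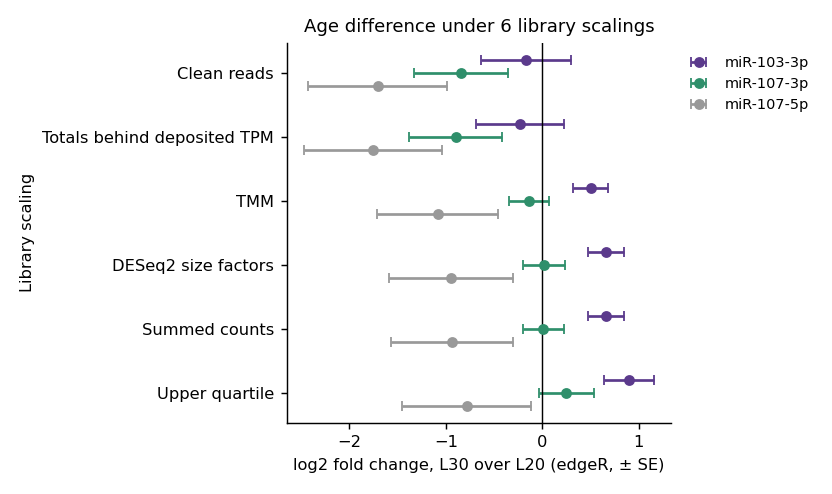
The log2 fold change (L30 over L20, horizontal axis, with standard errors) of miR-103-3p, miR-107-3p and miR-107-5p in edgeR under 6 library scalings (rows). MiR-103-3p ranges from −0.23 to 0.90 and miR-107-3p from −0.90 to 0.25, and miR-107-5p is negative in every row. MiR-103-3p lies to the right of miR-107-3p in every row. The scaling enters both strands alike, so the rows are not separate evidence for this order.

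Together the 4 members took 0.685%, 0.677% and 0.966% of the counted reads in L30-1, L30-2 and L30-3 and 0.532%, 0.597% and 0.573% in L20-1, L20-2 and L20-3. The L30 libraries were all above the L20 libraries, with L30-3 far above the others. Most of these counts were of miR-103-3p, which was itself apart in CPM, as were 19.5% of the tested miRNAs in this direction. The means were 0.776% ± 0.165 in L30 and 0.567% ± 0.0330 in L20 (SD, n = 3 each), a difference of 0.209 percentage points that was 0.114 without L30-3. As a share of the clean reads the difference was −0.0713 percentage points. L30-3 also had the lowest share of counted miRNA reads among its clean reads, 18.2%. The part of that share in its high value was not tested.

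The opposite-arm strands, which are usually degraded after the hairpin is cut, were rare. MiR-107-5p had 10, 1 and 5 counts in L30-1, L30-2 and L30-3 and 11, 36 and 13 counts in L20-1, L20-2 and L20-3. In TPM these were 0.511, 0.0743 and 0.235 in L30 and 0.542, 1.36 and 0.894 in L20. The ages did not overlap, although L30-1 and L20-1 were close. On this scale 46.2% of the tested miRNAs were likewise lower in every L30 library. In CPM the ages overlapped for miR-107-5p. The log2 fold change was −1.71 ± 0.72 (SE, adjusted p = 0.0620 in edgeR). Its share of the miR-107 arms was 0.0416% ± 0.0262 in L30 and 0.0825% ± 0.0302 in L20 (SD, n = 3 each), and the libraries of the ages overlapped (two-sided exact permutation test, p = 0.3). The adjusted p of miR-107-5p was 0.0342 without L30-1, the lowest in a range of 0.0342 to 0.698 over its edgeR fits. Without L30-1, 103 of 249 tested miRNAs were called, all as lower. Read counts as low as those of miR-107-5p limit the precision.

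MiR-103-2-5p had 0, 2 and 1 counts in L30-1, L30-2 and L30-3 and 1, 4 and 1 counts in L20-1, L20-2 and L20-3. It did not pass the filter. The 0 counts in L30-1 allow up to 0.153 TPM, the level of 3 counts, so a difference was not detectable at this depth. In all 6 libraries nearly all reads were 3p. The 5p strands made up from 0.00993% to 0.0166% of the summed member counts in the L30 libraries. In the L20 libraries they made up from 0.0192% to 0.0452%. These shares rested on 10, 3 and 6 reads in L30-1, L30-2 and L30-3 and on 12, 40 and 14 in L20-1, L20-2 and L20-3. The Wilson intervals of L30-1 (0.0090% to 0.0305%) and L20-1 (0.0110% to 0.0335%) largely overlapped. Within the miR-107 arms and within the miR-103 arms the 5p shares of the ages overlapped (two-sided exact permutation test, p = 0.3 and 0.9). The part of the miR-107-3p to miR-103-3p balance in the pooled shares was not tested.

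MiR-103 and miR-107 are often placed with miR-15 and miR-16 in a larger miR-15 and miR-107 group, whose members share a motif at the 5′ end. No mature sequences were used here, so this group was assembled by name, with the opposite arms left out. The table listed 5 such products outside miR-103 and miR-107. MiR-15 and miR-16 are known in mammals as brakes on cyclins and on the survival factor BCL2. With the clean reads as library size, 2 of the 5 were called, both lower in L30, namely miR-16-5p and miR-16c-5p, beside 24.6% of all tested miRNAs. The median log2 fold change of the 5 was −1.19, against −0.86 over all tested miRNAs. With the replicate block 3 of the 5 were called, miR-15b-5p in addition (edgeR adjusted p = 0.0404), which is named for this reason alone, and 38.1% of all tested miRNAs were called in that fit. Without L30-2 0 were called, and 1 was called without L20-1 or L20-2. Over all tested miRNAs, 3 of 250 were called without L30-2, 24 of 245 without L20-1 and 14 of 250 without L20-2.

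MiR-16-5p fell to 517 ± 179 TPM in L30, against 1893 ± 124 TPM in L20 (SD, n = 3 each), which is −1.87 ± 0.49 in log2 terms (SE, adjusted p = 0.00279 in edgeR). MiR-16c-5p fell to 31.2 ± 16.5 TPM in L30, against 119.6 ± 21.4 TPM in L20, which is −1.94 ± 0.57 in log2 terms (SE, adjusted p = 0.00619 in edgeR). Both were also called as lower with the summed counts as library size, at log2 fold changes of −1.09 and −1.21, where 16.1% of the tested miRNAs were. MiR-15a, at −0.16 (edgeR adjusted p = 0.826), and miR-15c-5p, at −0.39 (edgeR adjusted p = 0.589), were nearer to miR-103-3p at −0.17. In CPM, miR-15a was higher in every L30 library (mean 1231 in L30, 842 in L20), as were 19.5% of the tested miRNAs. DESeq2 called it as higher (adjusted p = 0.0437), beside 17.8% of the tested miRNAs. EdgeR with the summed counts as library size did not (0.55, adjusted p = 0.113).

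Within the 7 products of the group, miR-103-3p had the largest share in every library. MiR-103-3p took 47.9%, 45.0% and 51.9% of the summed counts in L30-1, L30-2 and L30-3 and 31.3%, 32.1% and 34.2% in L20-1, L20-2 and L20-3. MiR-16-5p took 13.3%, 16.4% and 12.7% in L30-1, L30-2 and L30-3 and 29.7%, 31.8% and 33.0% in L20-1, L20-2 and L20-3. In L20 the strands were close to each other, and in L30 miR-103-3p was far ahead (two-sided exact permutation test, p = 0.1 for each share, the floor). How often shares within other groups were apart was not counted. The shares sum to the whole, so a lower share of any product raises the others. In TPM, miR-16-5p averaged 517 in L30 and 1893 in L20. MiR-103-3p averaged 1736 and 1954 TPM with overlapping libraries, although it was higher in every L30 library in CPM. MiR-107-3p had a mean share of 17.5% ± 1.99 in L30 and 18.5% ± 1.41 in L20 (SD, n = 3 each), with overlapping libraries.

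**Figure D4:**
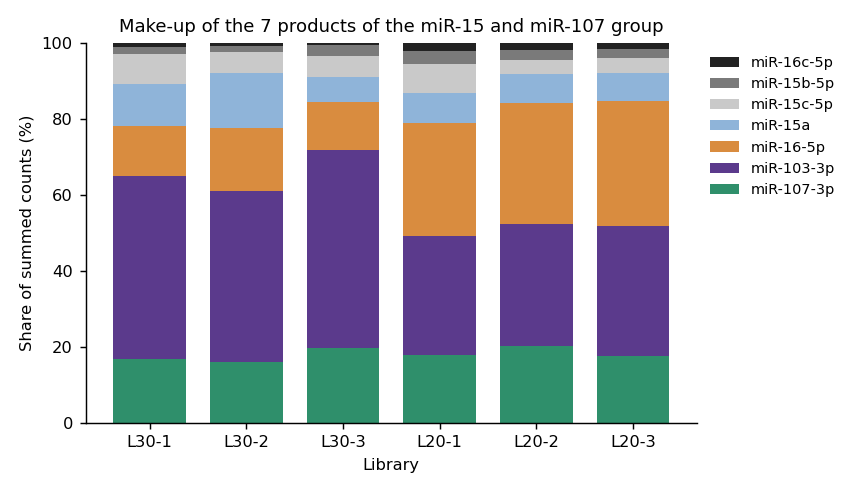
Share of each of the 7 products of the miR-15 and miR-107 group in their summed counts (percent, stacked to the whole, vertical axis) in each library (horizontal axis, L30 on the left). The miR-103-3p part is 45.0% to 51.9% in L30 and 31.3% to 34.2% in L20, and the miR-16-5p part is 12.7% to 16.4% in L30 and 29.7% to 33.0% in L20.

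Other miRNAs linked to insulin action or lipid metabolism in mammalian liver were counted as a list of 25 names, of which 23 were in the table and 22 were tested. With the clean reads as library size, 8 of the 22 were called, all lower in L30, beside 24.6% of all tested miRNAs, and 13 were called with the replicate block, beside 38.1%. Their median log2 fold change was −1.17, against −0.86 over all tested miRNAs. MiR-24-3p, at −2.81, was the lowest (edgeR adjusted p = 9.66e-05). It was followed by miR-33-3p at −2.02, the opposite arm of the cholesterol export repressor miR-33-5p (edgeR adjusted p = 0.00470). MiR-33-5p itself, also on the list, was at −1.20 and was not called (edgeR adjusted p = 0.0865). MiR-223 at −1.80 and miR-144-3p at −1.67 (edgeR adjusted p = 0.0122 and 0.0213) also stand on the leukocyte and erythroid marker lists. The number called was 1 without L20-2 or L30-2, 2 without L20-1, 4 without L20-3 or L30-3 and 15 without L30-1. Over all tested miRNAs, 14 of 250 were called without L20-2, 3 of 250 without L30-2 and 24 of 245 without L20-1. The numbers were 33 of 250 without L20-3, 45 of 252 without L30-3 and 103 of 249 without L30-1. MiR-24-3p was called in all 6 of these fits. With the summed counts as library size 4 were called as lower and 1 as higher, beside 16.1% and 12.3% of all tested miRNAs. MiR-24-3p, miR-33-3p and miR-223 were among the lower calls in that fit, and miR-144-3p was not (edgeR adjusted p = 0.0551). MiR-103-3p and miR-107-3p, at −0.17 and −0.84, were less negative than the median of this list.

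The miRNAs whose profile over the 6 libraries was closest to each main strand were found from the root mean square difference of centred log2(CPM + 1) values, over the 235 other tested miRNAs. For miR-103-3p they were miR-148a-3p (0.138), miR-1747-3p (0.156), let-7a-5p (0.186), let-7j-5p (0.188) and miR-1651-3p (0.189). For miR-107-3p they were miR-301b-3p (0.137), miR-30a-5p (0.144), miR-1682 (0.162), miR-429-5p (0.166) and miR-101-3p (0.169). Of these 10, miR-1747-3p, miR-1651-3p, miR-1682 and miR-429-5p averaged 0.635 to 1.06 TPM, where the added 1 flattens the profile. MiR-103-3p and miR-107-3p differed by 0.339, and each was number 38 in the other's order. Of the 235 others, 37 were therefore nearer to each strand than the strand with the same seed, and the rest were further away. Some of the 37 were at the low levels where the profile is flattened.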

How the data were processed

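The authors removed adaptors and short or low-quality reads, matched what remained to miRBase in CLC Genomics Workbench and deposited the read count of each mature miRNA in each library, without normalization. The deposited TPM values equal the counts divided by 1 total per library, and served only to recover these totals. Libraries were grouped by their titles, and 0 columns of values were left unmapped. The test on counts was the quasi-likelihood test of edgeR 4.0.16 (robust glmQLFit, R 4.3.3), with the study's clean reads as library sizes, after filterByExpr at its defaults. Benjamini-Hochberg adjusted p over the 236 miRNAs tested was called at 0.05. TPM was recomputed from counts and clean reads. Alternatives used other scalings, DESeq2 1.42.0, limma 3.58.1, Fisher's exact test on pooled counts, other filters, each library left out, and a replicate block. Leaving out each library with the summed counts as library size was chosen after seeing the data. Shares were compared by exact permutation over 20 regroupings. The edgeR, DESeq2, limma and Fisher fits were tried on simulated counts, drawn with the clean reads as library size. The steps for shares, permutations, sign flips and profiles were not tried in this way. For the replicate block and the sign flips, the numbers, which come from the labels, were taken as pairs. The sources do not state that libraries with the same number form a pair or a batch, so these fits rest on an assumption. Deviations from the group means were weakly correlated between libraries with the same number, at 0.119, 0.171 and 0.188 over 236 miRNAs. Between libraries with different numbers the correlations ran from −0.134 to −0.0173. These deviations sum to 0 within an age, so the correlations depend on one another. Figures were drawn with matplotlib 3.10.9.

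The members and lists were chosen with earlier results of these data known. All 4 members are named. Further names were the 5 nearest profiles of the 2 most counted members, miR-15 and miR-16 products that were called or had at least 1000 counts in every library, and the 4 called insulin and lipid miRNAs with the largest change. MiR-143-3p, miR-96-5p and miR-145-5p of the fixed lists were not found by name. Mature sequences were not used here.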

Additional observations from a re-analysis of the deposited data

How the results depend on the processing

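With each library left out, the difference in miR-107-3p share ranged from −10.9 to −8.54 percentage points, that in log2 ratio of miR-107-3p to miR-103-3p from −0.73 to −0.58, and that in 5p share from −0.0255 to −0.0125 percentage points, with no change of sign under these or the other alternatives run. Paired by replicate number, sign flips gave p = 0.25 for each of the 3, the smallest p of 3 pairs (exact test). The difference in the members' share of counted reads ranged from 0.114 to 0.259 percentage points with each library left out and was −0.0713 over clean reads. Over the counted reads without the 10 most abundant miRNAs, a smaller total, it was 0.845 percentage points.

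The log2 fold change of miR-103-3p was 0.50 under TMM factors, 0.90 under upper quartile factors, 0.66 under DESeq2's size factors, 0.66 with the summed counts as library size, 0.75 in DESeq2 and −0.19 by Fisher's exact test on pooled counts, which called it. That of miR-107-3p was 0.25 under upper quartile factors, 0.0144 under DESeq2's size factors, 0.0101 with the summed counts, 0.10 in DESeq2 and −0.88 by Fisher's test, which called it. With 1 library left out they ranged from −0.42 to 0.0112 and from −1.06 to −0.69, and with the summed counts from 0.48 to 0.74 and from −0.21 to 0.11. That of miR-107-5p stayed negative under every alternative run, at −1.09 under TMM factors, −0.78 under upper quartile factors, −0.95 under DESeq2's size factors, −0.93 with the summed counts, −0.89 in DESeq2, −0.59 by limma on log2(TPM + 1) and from −2.47 (without L30-1) to −1.32 (without L30-2) with 1 library left out. It was called with the totals behind the deposited TPM (−1.75) and by Fisher's test (−1.73).

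Of the members, 1 was called as lower with the totals behind the deposited TPM, beside 75 of all 236 tested miRNAs. Fisher's test called 3 as lower, beside 174 of all 236. As higher, 1 was called under upper quartile factors, DESeq2's size factors, the summed counts and DESeq2. Over all 236 tested miRNAs these settings called 41, 33, 29 and 42 as higher. Without 1 library the members called numbered from 0 to 2 lower and 0 higher with the clean reads as library size, and 0 lower and from 0 to 1 higher with the summed counts. Over 245 to 252 tested miRNAs, these fits called from 3 to 103 as lower and from 0 to 5 as higher with the clean reads. With the summed counts they called from 20 to 34 as lower and from 10 to 29 as higher.

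Over all tested miRNAs, 90 were called by DESeq2, 205 by Fisher's test and 90 with the replicate block, and from 3 (without L30-2) to 103 (without L30-1) without 1 library. Lower calls numbered 25 under upper quartile factors, 38 under DESeq2's size factors, 38 with the summed counts, 174 by Fisher's test, 88 with the replicate block and from 3 to 103 without 1 library. Higher calls numbered 22 under TMM factors, 41 under upper quartile factors, 33 under DESeq2's size factors, 29 with the summed counts, 42 in DESeq2, 31 by Fisher's test, 2 with the replicate block and from 0 to 5 without 1 library.

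Among the 5 miR-15 and miR-16 products, Fisher's test called 5 as lower, DESeq2 called 1, miR-15a, as higher, and from 0 to 3 were lower without 1 library. In the insulin and lipid list, lower calls numbered 3 under upper quartile factors, 4 under DESeq2's size factors, 4 with the summed counts, 20 by Fisher's test, 5 with no filter, 13 with the replicate block and from 1 to 15 without 1 library. Higher calls numbered 1 under TMM factors, 3 under upper quartile factors, 1 under DESeq2's size factors, 1 with the summed counts, 4 in DESeq2 and 1 by Fisher's test. The block changed no call of a member. Fisher's test on pooled counts leaves out the spread between libraries by construction. The cause of the other differences was not tested. Depth limits the 5p strands, with at most 36 counts in any library.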
